A study of Mus musculus with 2 samples.

Results

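The genes described here encode the respiratory chain and the ATP synthase of mouse adrenal endothelial cells. They were chosen by symbol: names starting with Nduf, Cox followed by 4 to 8, Uqcr or Atp5, the genes Sdha to Sdhd, and the mitochondrially encoded mt-Nd, mt-Co, mt-Cytb and mt-Atp genes, each with at least 50 unique molecular identifiers (UMIs, tags that count single RNA molecules) over both libraries. Of 54838 gene identifiers in the files, 99 met the rule, 86 encoded in the nucleus and 13 in the mitochondrial genome. A further 12 matching symbols had fewer than 50 UMIs, and 9 were left out for their names, 1 of them well counted: Ndufb1-ps had 631 UMIs in WT and 865 in VEGF/LysM endothelial cells. Just inside the limit lay mt-Nd4l with 68 UMIs and Ndufaf1 with 143, and just outside lay Cox6b2 with 47 and Ndufa4l2 with 34.

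The study asked how VEGF-A made by macrophages affects endothelial diversity in the adrenal gland. Cells positive for CD31, negative for CD45 and negative for the viability dye SYTOX blue were sorted from minced, cold-protease-digested adrenal glands of female mice aged 12 weeks, and 1 droplet library (10x Genomics) was made for each of 2 genotypes, wild type (WT) and VEGF/LysM. LysM names the lysozyme gene Lyz2, whose promoter is active in macrophages and other myeloid cells. The labels give neither the alleles nor the number of mice in a library. With 1 library per genotype no comparison between genotypes has a replicate check, no test was possible, and the intervals given cover counting error only (95%, exact). Genotype, mouse, sort and library cannot be told apart.

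The respiratory chain passes electrons from NADH (complex I) and succinate (complex II) through complex III to oxygen at complex IV. Complexes I, III and IV pump protons across the inner mitochondrial membrane, and complex V, the ATP synthase, lets them return to make ATP. Some of the core subunits of complexes I, III and IV and part of the membrane motor of complex V are encoded in mitochondrial DNA and transcribed there, while all other subunits are encoded in the nucleus and imported. Complex II has no mitochondrially encoded subunit. Endothelial cells are known for drawing much of their ATP from glycolysis. The steroid-making cells of the adrenal cortex, which neighbour these vessels, are rich in mitochondria.

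Promoters of 4 nuclear members are shown because each holds the core of the palindrome bound by nuclear respiratory factor 1 (NRF1), an activator of many respiratory chain genes, and because the results below turn on some of them. Each is the 250 bases before the annotated start (RefSeq, GRCm38.p6), written 5′ to 3′ on the gene's strand. Capitals mark the letters searched on both strands, GCGCATGCG for NRF1 and CCGGAAG for ETS-family factors such as GABP. In Cox6a1 the second stretch of capitals is the ETS motif read from the other strand. The promoters lie at chr15:102671048-102671297 (Atp5g2, minus strand), chr5:115348959-115349208 (Cox6a1, minus strand), chr17:56717512-56717761 (Ndufa11, plus strand) and chr2:36049339-36049588 (Ndufa8, minus strand).
Atp5g2: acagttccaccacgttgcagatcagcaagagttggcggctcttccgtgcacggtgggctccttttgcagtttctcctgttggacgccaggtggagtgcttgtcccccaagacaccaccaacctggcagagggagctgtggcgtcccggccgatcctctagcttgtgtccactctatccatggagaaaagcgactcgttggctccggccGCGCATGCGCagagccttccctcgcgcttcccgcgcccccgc
Cox6a1: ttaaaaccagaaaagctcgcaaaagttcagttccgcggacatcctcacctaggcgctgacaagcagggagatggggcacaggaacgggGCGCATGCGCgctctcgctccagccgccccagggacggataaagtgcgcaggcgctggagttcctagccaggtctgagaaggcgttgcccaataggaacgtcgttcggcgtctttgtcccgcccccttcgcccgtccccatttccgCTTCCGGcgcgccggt
Ndufa11: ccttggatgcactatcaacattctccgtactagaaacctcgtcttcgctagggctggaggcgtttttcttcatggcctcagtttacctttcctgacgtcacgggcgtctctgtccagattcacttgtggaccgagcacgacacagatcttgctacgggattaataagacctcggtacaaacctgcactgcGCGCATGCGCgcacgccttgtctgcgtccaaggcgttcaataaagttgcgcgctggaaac
Ndufa8: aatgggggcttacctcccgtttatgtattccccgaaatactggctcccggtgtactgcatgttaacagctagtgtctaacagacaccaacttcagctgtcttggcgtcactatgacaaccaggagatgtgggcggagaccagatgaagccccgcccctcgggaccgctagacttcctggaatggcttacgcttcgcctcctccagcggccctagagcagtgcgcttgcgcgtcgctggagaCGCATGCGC

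Atp5g2 encodes a copy of the ATP synthase c-ring subunit, Cox6a1 a structural subunit of complex IV, Ndufa11 an accessory subunit of the membrane arm of complex I, and Ndufa8 a complex I subunit facing the intermembrane space. Motifs were counted from 250 bases before to 50 bases after the annotated start, over all RefSeq promoters of a gene. Of 72 nuclear members with a RefSeq promoter, 10 (13.9%) held the NRF1 letters on either strand, against 527 of 27025 genes (1.95%). The ETS letters stood in 18 of the 72 (25%) and in 9.93% of all genes with a promoter. The YY1 letters AAGATGGCG stood in 8 (11.1%) and in 1.64%. The ETS and YY1 motifs share the letters AAG and can overlap there. Among the members called higher in VEGF/LysM cells below, 2 of 29 held the NRF1 letters, 3 the YY1 letters and 5 the ETS letters, against 8, 5 and 13 of the 43 others. A match describes the letters in this window and is no evidence of binding.

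After filtering, 5680 endothelial cells of the WT library (7405758 UMIs, median 1153.5 per cell) and 3521 of the VEGF/LysM library (8890834 UMIs, median 2285) were used, and 10 barcodes occurred in both libraries. The VEGF/LysM cells were thus the more deeply counted. All 12 endothelial markers were measured, and none of them differed by 25%. Vegfa itself had no UMI in the 91 WT and 97 VEGF/LysM myeloid-like cells, where the intervals reach 13.2 and 7.34 CPM (counts scaled to a total of 1000000 UMIs). It had 44 UMIs in the endothelial cells of each library. These counts do not check the genotype labels. The largest endothelial class was Plvap-high cells, which carry the diaphragm protein of fenestrated vessels (2687 WT, 1521 VEGF/LysM). The other main classes were capillary-like cells with Cd36 and Car4 (796 and 750), arterial-like cells (313 and 298) and tip-like cells with Apln and Kcne3 (221 and 154). The arterial-like class pools cluster 0, led by Npnt, Tspan8 and Lgr5 with Bmx (251 and 252), and cluster 12, led by Col8a1, Stmn2 and Fbln5 (62 and 46). Capillary markers were also enriched in cluster 12. Cluster 2 (Nlgn1, Oit3, Bgn) and cluster 6 (Ccl2, Sele) were left without a name and outside the Plvap-high class, although both carry Plvap: 1657 CPM in cluster 2 and 1128 CPM in cluster 6, against 1152 to 1511 CPM in the clusters of that class. Haemoglobin genes were also among the leading genes of cluster 6, with erythroid markers at 1190 CPM in WT against 2466 CPM in VEGF/LysM. Proliferation markers in cluster 2 summed to 77.1 and 186 CPM. The part of these lists in the values below was not tested. Respiratory chain and mitochondrial genes were left out when cells were clustered.

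In all endothelial cells together, the summed nuclear respiratory chain transcripts were higher in VEGF/LysM cells and the summed mitochondrial ones slightly lower, with a direction that differed between ranges of UMIs per cell. The 86 nuclear members summed to 7754 CPM in WT against 9261 CPM in VEGF/LysM cells, a log2 ratio of 0.26 (0.24 to 0.27). The 13 mitochondrial members summed to 5546 and 5388 CPM, a log2 ratio of -0.04 (-0.06 to -0.02). A gene is called higher or lower here when its level in one library was at least 25% above that in the other, and a sum when its counting interval excludes a ratio of 1. Of the 86 nuclear members 31 were higher, beside 9.94% of the 12289 genes measured with at least 50 UMIs, and 1 was lower, beside 11.3%. Counting intervals lay above 0 for 30 of the 31. The median log2 ratio of the nuclear members was 0.26, and of all measured genes -0.03. Of the 86 nuclear members 78 lay above 0, beside 5396 of the 12289 measured genes. In cells of 1500 to 3000 UMIs in both libraries, 53 nuclear members were higher. The share of all measured genes was not counted in those cells, so the 53 cannot be set against 9.94%. With cells thinned to 1000 UMIs each the mitochondrial log2 ratio was 0.11.

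**Figure D1:**
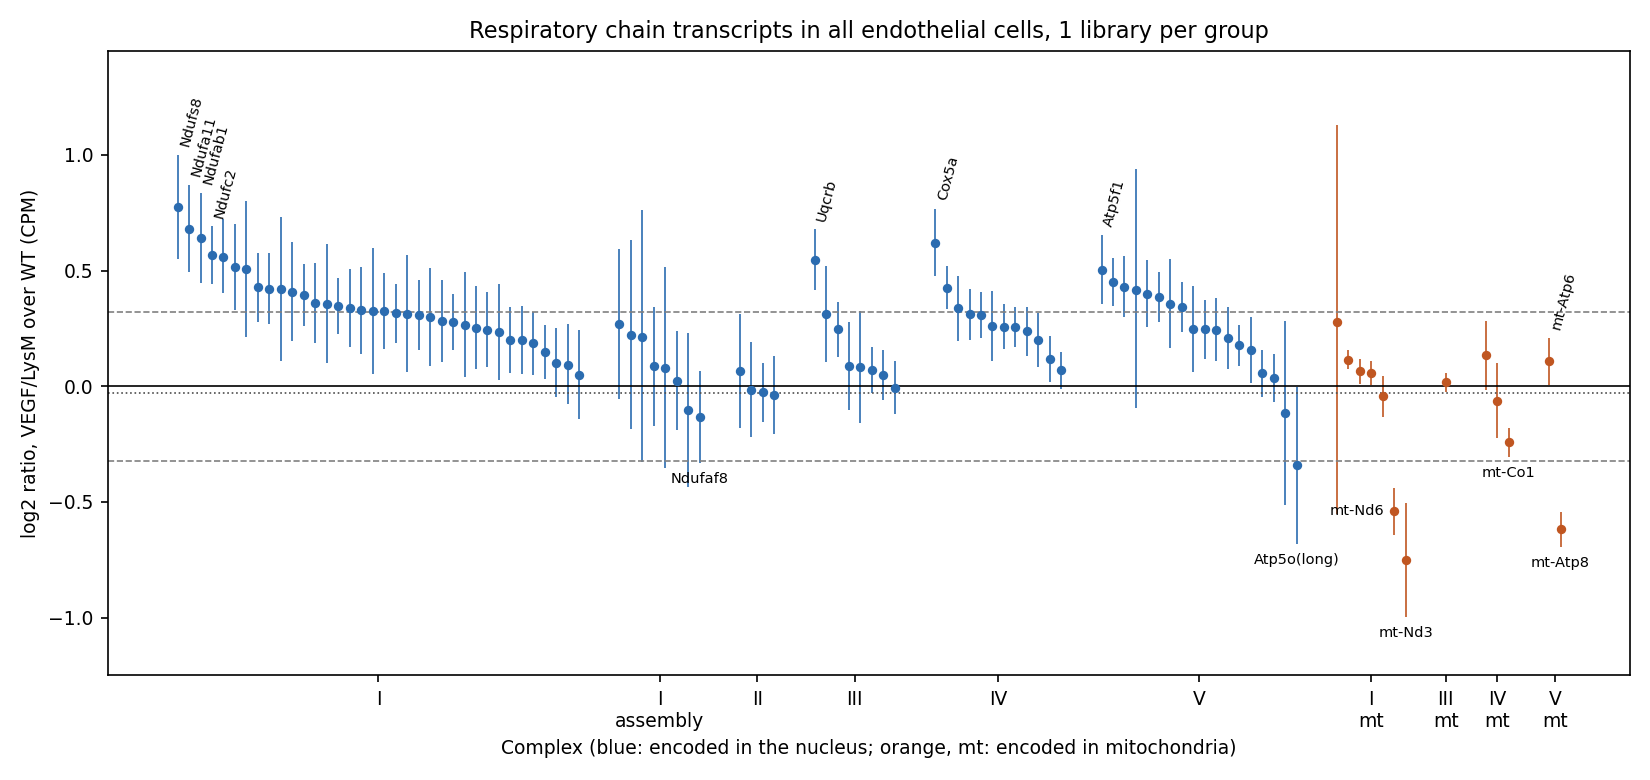
Log2 ratio of VEGF/LysM over WT for each member in all endothelial cells (y axis), ordered by complex and by ratio (x axis). Points are nuclear (blue) or mitochondrial (orange) genes, bars are 95% counting intervals, dashed lines mark a 25% difference and the dotted line the median of all measured genes (-0.03). Complex I lies above 0 in all 36 nuclear subunits, complex II near 0, and mt-Nd3, mt-Atp8 and mt-Nd6 below -0.5.

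Complex I, the NADH dehydrogenase, had the most members on the higher side. All 36 of its nuclear subunits lay above 0, 19 of them higher and none lower, and their sum went from 2414 CPM in WT to 3039 CPM in VEGF/LysM cells (log2 0.33, 0.30 to 0.36). Both kinds of subunit took part, 3 of 7 core and 16 of 29 accessory ones. Ndufs8, an iron-sulfur subunit of the quinone-binding arm, was counted at 33.4 CPM in WT against 57.0 CPM in VEGF/LysM cells (log2 0.77, 0.55 to 0.999). Ndufa11, described above, was at 48.2 and 77.3 CPM (log2 0.68, 0.49 to 0.87). Ndufab1, the mitochondrial acyl carrier protein, was at 44.7 and 69.6 CPM (log2 0.64, 0.44 to 0.84). Ndufc2, an accessory membrane subunit, was at 112 and 166 CPM (log2 0.57, 0.44 to 0.69). The intervals of these 4 genes lay wholly above the 25% line. The genes were named for their high lower bounds, so this restates how they were picked and adds no support. The intervals of Ndufb8 (log2 0.56, 0.40 to 0.72) and Ndufs7 (log2 0.51, 0.33 to 0.70) also lay above that line. At the other end of the complex, Ndufa10 was at 54.4 and 56.4 CPM (log2 0.05, -0.14 to 0.24). Ndufa2 was at 139 and 154 CPM (log2 0.15, 0.03 to 0.27) and Ndufa9 at 19.2 and 25.6 CPM (log2 0.42, 0.11 to 0.73).

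The 8 complex I assembly factors, Ndufaf1 to Ndufaf8, which help build the complex and are not part of it, had a smaller summed ratio than the subunits. Their sum was 197 CPM in WT against 201 CPM in VEGF/LysM cells (log2 0.03, -0.07 to 0.13). None was called higher, beside 9.94% of all measured genes, or lower, beside 11.3%, and 6 of the 8 lay above 0. In Plvap-high cells their summed log2 ratio was 0.11 (-0.05 to 0.27). Ndufaf8 was at 54.3 and 49.5 CPM (log2 -0.13, -0.33 to 0.07), and Ndufaf1 had 51 and 71 UMIs.

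Complex II, succinate dehydrogenase, was level between the libraries. Sdha, the flavoprotein, was at 126 CPM in WT against 124 CPM in VEGF/LysM cells, and Sdhb, the iron-sulfur subunit, at 48.7 and 48.3 CPM. The membrane anchors Sdhc and Sdhd were at 71.8 and 70.0 CPM and at 33.2 and 34.8 CPM. The 4 summed to a log2 ratio of -0.02 (-0.10 to 0.07), an interval that does not overlap that of complex I.

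Complex III, the cytochrome bc1 complex, had 1 of 8 nuclear subunits higher, Uqcrb, which lies near the quinone site. Uqcrb was at 101 CPM in WT against 147 CPM in VEGF/LysM cells (log2 0.55, 0.42 to 0.68). Uqcrfs1, the Rieske iron-sulfur protein, was at 33.9 and 35.9 CPM, Uqcr10 at 152 CPM in both, and Uqcrh at 207 and 217 CPM. The sum of the 8 had a log2 ratio of 0.16 (0.11 to 0.20).

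Complex IV, cytochrome c oxidase, had 12 nuclear subunits, all above 0 with a median log2 ratio of 0.26. Those higher were Cox5a at 80.6 CPM in WT against 124 CPM in VEGF/LysM cells (log2 0.62, 0.47 to 0.77), Ndufa4 at 208 and 280 CPM (log2 0.43, 0.33 to 0.52), and Cox5b at 91.4 and 115 CPM (log2 0.34, 0.19 to 0.48). Ndufa4 was named for complex I and is now placed in complex IV. Cox8a was at 308 and 323 CPM (log2 0.07, -0.01 to 0.15) and Cox7b at 82.4 and 98.5 CPM (log2 0.26, 0.11 to 0.41).

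Several of these subunits have a tissue-restricted partner, and the widely expressed form carried nearly all counts in both libraries. Cox4i1 was at 242 CPM in WT against 289 CPM in VEGF/LysM cells, and its partner Cox4i2 had 6 and 18 UMIs. Cox6a1 was at 139 and 160 CPM, while Cox6a2 had no UMI, which allows up to 0.405 CPM in WT against 0.337 CPM in VEGF/LysM cells. Cox6b1 stood at 149 and 184 CPM, with 15 and 19 UMIs of Cox6b2. Cox7a2 was at 185 and 229 CPM and the supercomplex factor Cox7a2l at 198 and 215 CPM, with 7 and 6 UMIs of Cox7a1. Cox8b had 3 and 7 UMIs, and Ndufa4l2, the partner of Ndufa4, had 12 and 20. The 3 genes for the identical c-ring protein of complex V differed among themselves: Atp5g1 was at 99.1 and 117 CPM, Atp5g3 at 114 and 135 CPM, and Atp5g2 at 13.9 and 12.8 CPM (log2 -0.12, -0.51 to 0.28).

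Complex V had 8 of 18 nuclear members higher and 1 lower, with a summed log2 ratio of 0.26 (0.23 to 0.29). In the membrane part and stalk, Atp5f1 was at 79.4 CPM in WT against 112 CPM in VEGF/LysM cells (log2 0.50, 0.35 to 0.65) and Atp5h at 166 and 227 CPM (log2 0.45, 0.35 to 0.55). In the catalytic head, the beta subunit Atp5b was at 157 and 199 CPM (log2 0.34, 0.23 to 0.45), while the alpha subunit Atp5a1, its partner in the head, was at 182 and 186 CPM (log2 0.04, -0.07 to 0.14). The intervals of Atp5b and Atp5a1 did not overlap. Atp5s, a minor factor with 53 and 85 UMIs, counted as higher with an interval that included 0. The lower member is a second gene identifier named Atp5o, a long locus on chromosome 16 from 91684398 to 91926982 (GRCm38). This locus lies across other genes and overlaps only a part of the ordinary Atp5o gene, which runs from 91925214 to 91931687. It was at 20.5 and 16.2 CPM (log2 -0.34, -0.68 to -0.0033). By comparison the ordinary Atp5o had 49.6 and 63.4 CPM (log2 0.36, 0.16 to 0.55). Reads of the 2 identifiers may be shared or split by the counting.

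The mitochondrially encoded members split into a larger group near 0 and a smaller group below it. mt-Nd1 was at 678 CPM in WT against 709 CPM in VEGF/LysM cells, mt-Nd2 at 1103 and 1194, mt-Nd4 at 689 and 717, mt-Nd5 at 259.5 and 252, and mt-Cytb at 1179 and 1194. mt-Co2 was at 87.4 and 95.8 CPM, mt-Co3 at 81.0 and 77.6, and mt-Atp6 at 189 and 203. Log2 ratios of these 8 lay between -0.06 and 0.13. Called lower were mt-Nd3, a core subunit of complex I, at 45.2 and 26.9 CPM (log2 -0.75, -0.996 to -0.51), mt-Atp8, a small subunit of the ATP synthase, at 457 and 298 CPM (log2 -0.62, -0.69 to -0.55), and mt-Nd6 at 229 and 157 CPM (log2 -0.54, -0.64 to -0.44). mt-Co1, the catalytic subunit of complex IV, was at 546 and 461 CPM (log2 -0.24, -0.31 to -0.18). mt-Nd4l had 22 and 32 UMIs, too few to place.

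mt-Nd6 is the only member transcribed from the light strand of mitochondrial DNA, and mt-Atp8 shares its messenger with mt-Atp6. The reading frames of mt-Atp8 and mt-Atp6 overlap by 43 bases at chrM:7927-7969 (GRCm38, plus strand), shown because reads there could count for either gene.
mt-Atp8 and mt-Atp6 overlap: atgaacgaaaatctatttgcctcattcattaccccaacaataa
Reads inside this stretch match both annotations, and the sources used here do not give how the authors' counting assigned them. Over all endothelial cells mt-Atp8 was lower and mt-Atp6 slightly above 0, but mt-Atp6 lay below 0 in 6 of 9 endothelial clusters. mt-Atp8 was also lower outside the endothelium: in myeloid-like cells mt-Atp8 was at 477 CPM in WT against 217 CPM in VEGF/LysM cells (log2 -1.14, -1.52 to -0.76), and in non-endothelial cluster 15 at 1403 and 749 CPM (log2 -0.91, -1.23 to -0.58).

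Capillary-like cells numbered 796 of 5680 in WT and 750 of 3521 in VEGF/LysM, and the 8 capillary markers summed to 6272 CPM in WT against 11374 CPM in VEGF/LysM cells. These markers were also higher within Plvap-high cells (log2 0.69) and capillary-like cells (log2 0.49), though not within arterial-like cells (log2 -0.10). With the classes weighted equally in both libraries, the summed log2 ratio was 0.24 for nuclear and -0.14 for mitochondrial members. The ratios were therefore also taken within each class.

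**Figure D2:**
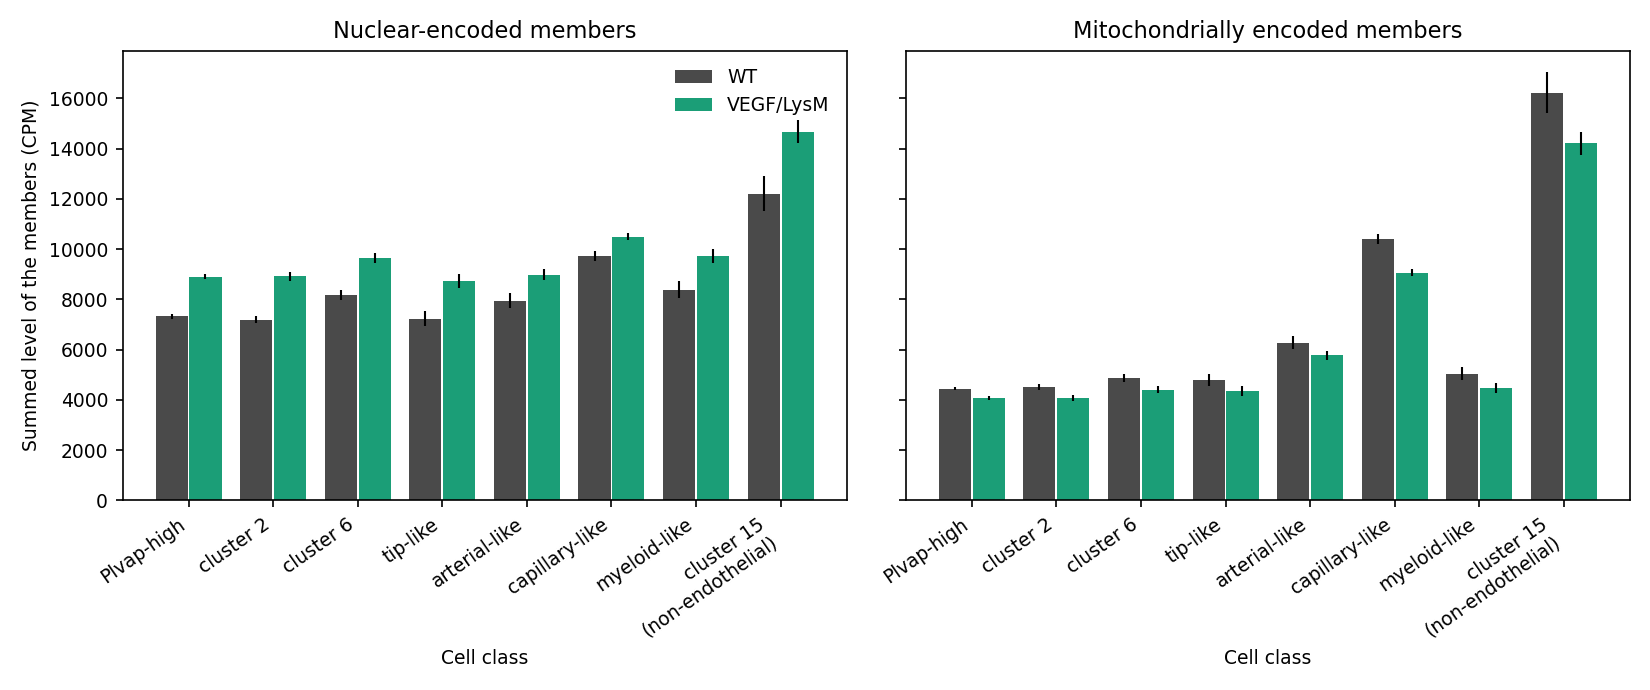
Summed level in CPM of the nuclear (left) and mitochondrial (right) members in each class or cluster (x axis), with the WT library in dark grey and the VEGF/LysM library in green and 95% counting intervals as bars. Nuclear sums are higher in VEGF/LysM cells in each class shown, and capillary-like cells have higher mitochondrial sums than Plvap-high cells.

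Within the named classes, nuclear sums were higher and mitochondrial sums lower in the VEGF/LysM library. Nuclear members above 0 numbered 79 of 85 in Plvap-high cells, beside 4593 of 10157 measured genes, and 55 of 80 in capillary-like cells, beside 3548 of 7565. They numbered 49 of 69 in arterial-like cells, beside 2208 of 4653, and 43 of 51 in tip-like cells, beside 1704 of 3531. In Plvap-high cells the nuclear sum went from 7322 CPM in WT to 8892 CPM in VEGF/LysM (log2 0.28, 0.26 to 0.30), and the mitochondrial sum from 4451 to 4072 CPM (log2 -0.13, -0.16 to -0.10). There, 34 of 85 measured nuclear members were higher, beside 9.73% of all measured genes, and 2 were lower, beside 12.1%. In capillary-like cells the nuclear sum was 9724 and 10496 CPM (log2 0.11, 0.07 to 0.15) and the mitochondrial sum 10412 and 9061 CPM (log2 -0.20, -0.24 to -0.16). Their 16 of 80 nuclear members higher stood beside a background of 13.9%, 10 of the 16 had intervals above 0, and 3 were lower, beside 16.2%. In arterial-like cells 20 of 69 were higher, beside 16.5%, with 8 intervals above 0, and 3 lower, beside 18%, and in tip-like cells 22 of 51, beside 16.7%, with 7 intervals above 0, and 3 lower, beside 18.5%. In cluster 2, 41 of 79 were higher and 2 lower, each beside 14%, and in cluster 6, 31 of 75 were higher, beside 13.4%, and 4 lower, beside 16.3%. The Plvap-high class holds cluster 1, which was mostly WT (580 and 110 cells). In it 37 of 55 were higher, beside 20%, and 2 lower, beside 26.1%. Mitochondrial members called lower numbered 3 of 12 in Plvap-high cells, beside 12.1%, and 4 of 12 in capillary-like cells, beside 16.2%. They numbered 4 of 11 in arterial-like cells, beside 18%, and 2 of 10 in tip-like cells, beside 18.5%. In the same order, 2, 4, 3 and 2 of these had intervals below 0. Called higher were 1 of 11 in arterial-like cells, beside 16.5%, and 1 of 10 in tip-like cells, beside 16.7%.

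Outside the endothelium the nuclear sums were also higher. In myeloid-like cells 18 of 57 nuclear members were higher, beside 17.6%, and 3 lower, beside 20.6%, with sums of 8374 CPM in WT against 9716 CPM in VEGF/LysM (log2 0.21). In cluster 15, where adrenocortical and fibroblast markers were enriched, 17 of 39 were higher, beside 27.5%, and 3 lower, beside 21.4%, with sums of 12188 and 14661 CPM (log2 0.27). The higher nuclear sum was thus shared by cells of different kinds within the same library.

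Across the 9 endothelial clusters with at least 100 cells in each library, 50 nuclear members were measured in every cluster. Of these, 21 lay above 0 in all 9, beside 5.84% of the 2825 genes measured in every cluster, and none below 0 in all 9, beside 4.39%. Ndufc2, Uqcrb, Cox5a, Ndufb8, Atp5f1 and Atp5h were among the 21, with lowest log2 ratios of 0.30, 0.30, 0.26, 0.34, 0.23 and 0.30. Of 10 mitochondrial members measured in every cluster, mt-Atp8 (-0.89 to -0.45), mt-Nd6 (-0.93 to -0.41) and mt-Nd5 (-0.26 to -0.09) lay below 0 in all 9, and no mitochondrial member lay above 0 in all 9. These clusters come from the same 2 libraries and are not replicates.

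Ndufs8 in Plvap-high cells was at 31.1 CPM in WT against 60.6 CPM in VEGF/LysM (log2 0.96, 0.62 to 1.31), and in capillary-like cells at 43.1 and 63.5 CPM (log2 0.56, 0.04 to 1.10). Cox5a in capillary-like cells was at 134 and 203 CPM (log2 0.60, 0.30 to 0.89) and in arterial-like cells at 108 and 141 CPM (log2 0.39, -0.15 to 0.95). mt-Atp8 in capillary-like cells was at 843 and 463 CPM (log2 -0.86, -1.01 to -0.72) and mt-Nd3 at 100 and 41.9 CPM (log2 -1.26, -1.71 to -0.80). mt-Co1 was at 1015 and 696 CPM in the same cells (log2 -0.54, -0.67 to -0.42) and at 394 and 408 CPM in tip-like cells (log2 0.05, -0.28 to 0.39). In capillary-like cells the dissociation and immediate-early list (Fos, Jun, Egr1 and others, with the heat-shock genes Hspa1a and Hspa1b) summed to 1823 CPM in WT against 844 CPM in VEGF/LysM. Its part in these values was not tested.

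**Figure D3:**
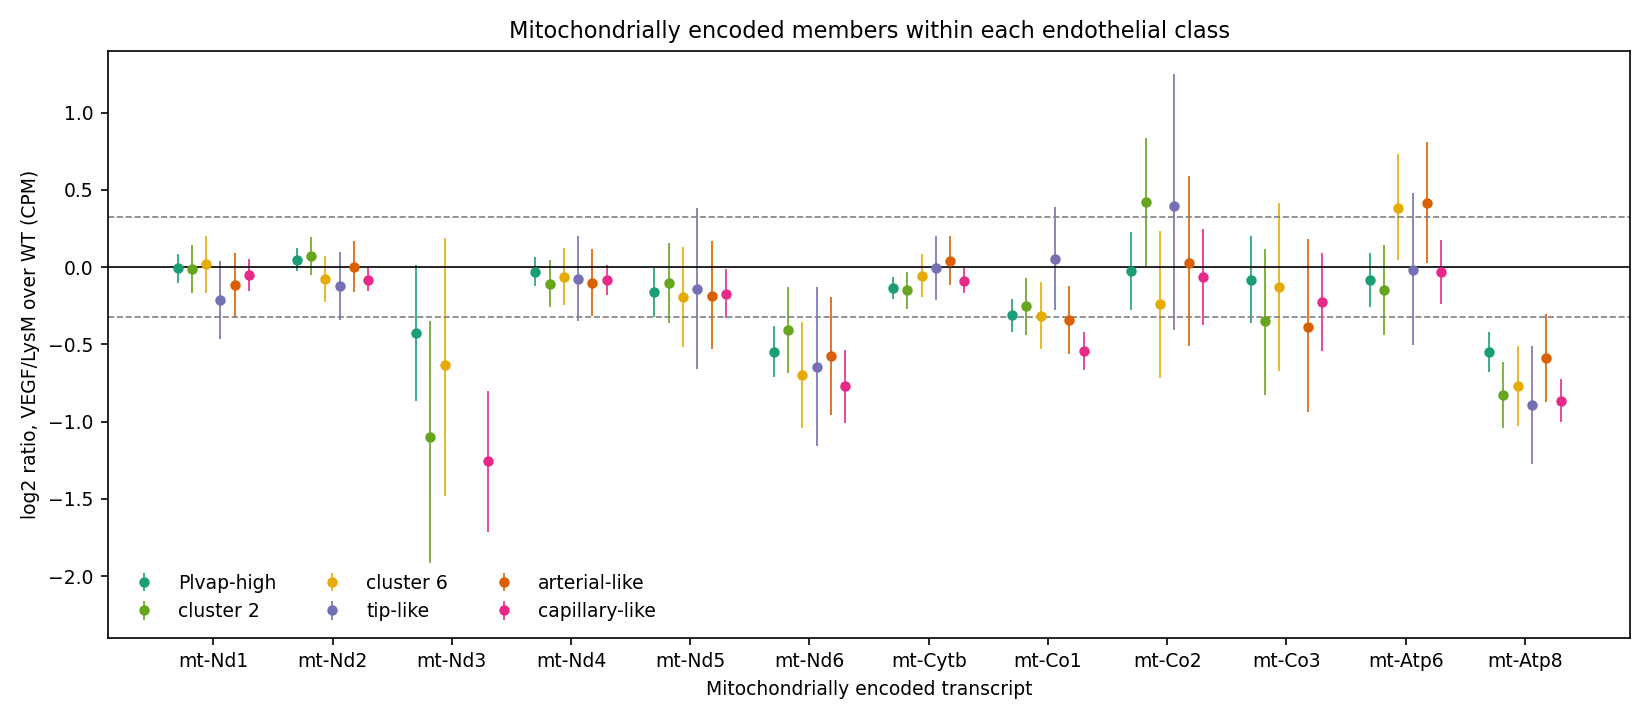
Log2 ratio of VEGF/LysM over WT (y axis) for each mitochondrially encoded transcript (x axis) within 6 endothelial classes or clusters, shown by colour, with 95% counting intervals. Dashed lines mark a 25% difference, and a point is drawn where a gene had at least 50 UMIs in the class. mt-Atp8 and mt-Nd6 lie below 0 in all 6, and mt-Nd1, mt-Nd2, mt-Nd4 and mt-Cytb lie near 0.

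Because the libraries differ in depth, cells were also compared within ranges of UMIs per cell. Between 1000 and 2000 UMIs, Plvap-high cells had nuclear sums of 7201 CPM in WT (1410 cells) and 9774 CPM in VEGF/LysM (500 cells), a log2 ratio of 0.44 (0.40 to 0.48). Between 2000 and 4000 UMIs the sums were 7064 and 8932 CPM (log2 0.34, 0.28 to 0.39), and from 4000 UMIs on, with 8 WT cells, the log2 ratio was 0.44. Below 1000 UMIs the order was the opposite, 7792 CPM in 1087 WT cells and 3733 CPM in 86 VEGF/LysM cells (log2 -1.06, -1.252 to -0.88). In capillary-like cells the nuclear log2 ratio was -0.82 (-0.98 to -0.66) below 1000 UMIs, a range that held 445 of the 796 WT cells, then 0.22 (0.16 to 0.28), 0.12 (0.05 to 0.19) and 0.30 (0.19 to 0.40), the last with 17 WT cells. In all endothelial cells below 1000 UMIs, the cytosolic ribosomal protein genes summed to 53220 CPM in WT against 21497 CPM in VEGF/LysM cells, so the shallow VEGF/LysM cells were low in both gene sets.

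The mitochondrial sum of all endothelial cells changed direction between ranges of UMIs per cell. Its log2 ratio was 0.35 (0.27 to 0.42) below 1000 UMIs and 0.37 (0.33 to 0.40) from 1000 to 2000. It was -0.16 (-0.19 to -0.12) from 2000 to 4000 and -0.33 (-0.41 to -0.25) from 4000 on, where WT had 41 cells. The nuclear log2 ratios were -0.78, 0.42, 0.28 and 0.25. The mix of classes within a range also differed between the libraries, and its part was not tested. Capillary-like cells were 238 of 2932 WT and 360 of 1146 VEGF/LysM cells from 1000 to 2000 UMIs. From 4000 on they were 17 of 41 and 88 of 391. The lower mitochondrial sum of Plvap-high cells was not seen at matched depth. Its log2 ratio was 0.08 (0.03 to 0.14) between 1000 and 2000 UMIs, -0.04 (-0.11 to 0.03) between 2000 and 4000, and 0.62 (0.47 to 0.75) below 1000. In capillary-like cells it was -0.11 (-0.17 to -0.05), -0.06 (-0.13 to 0.01) and -0.59 in the same ranges. From 4000 UMIs on it was 0.01 (-0.24 to 0.28) in Plvap-high cells, with 8 WT cells. In capillary-like cells of that range it was 0.03 (-0.08 to 0.14), with 17 WT cells. Gene by gene, mt-Nd6 in Plvap-high cells was at -0.74 (-1.06 to -0.43) and -0.55 (-0.88 to -0.21) in the 2 ranges from 1000 to 4000 UMIs, mt-Atp8 at -0.47 (-0.70 to -0.24) and -0.38 (-0.64 to -0.10), and mt-Co1 at -0.10 (-0.29 to 0.08) and -0.37 (-0.60 to -0.13). mt-Nd3 did not: it had 49 and 29 UMIs with a log2 ratio of 0.51 (-0.21 to 1.20), then 7 and 43 UMIs with 0.32 (-0.85 to 1.72). Uqcrb in the same cells was at 0.84 and 0.91, and Ndufs8 at 0.82 and 1.49.

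**Figure D4:**
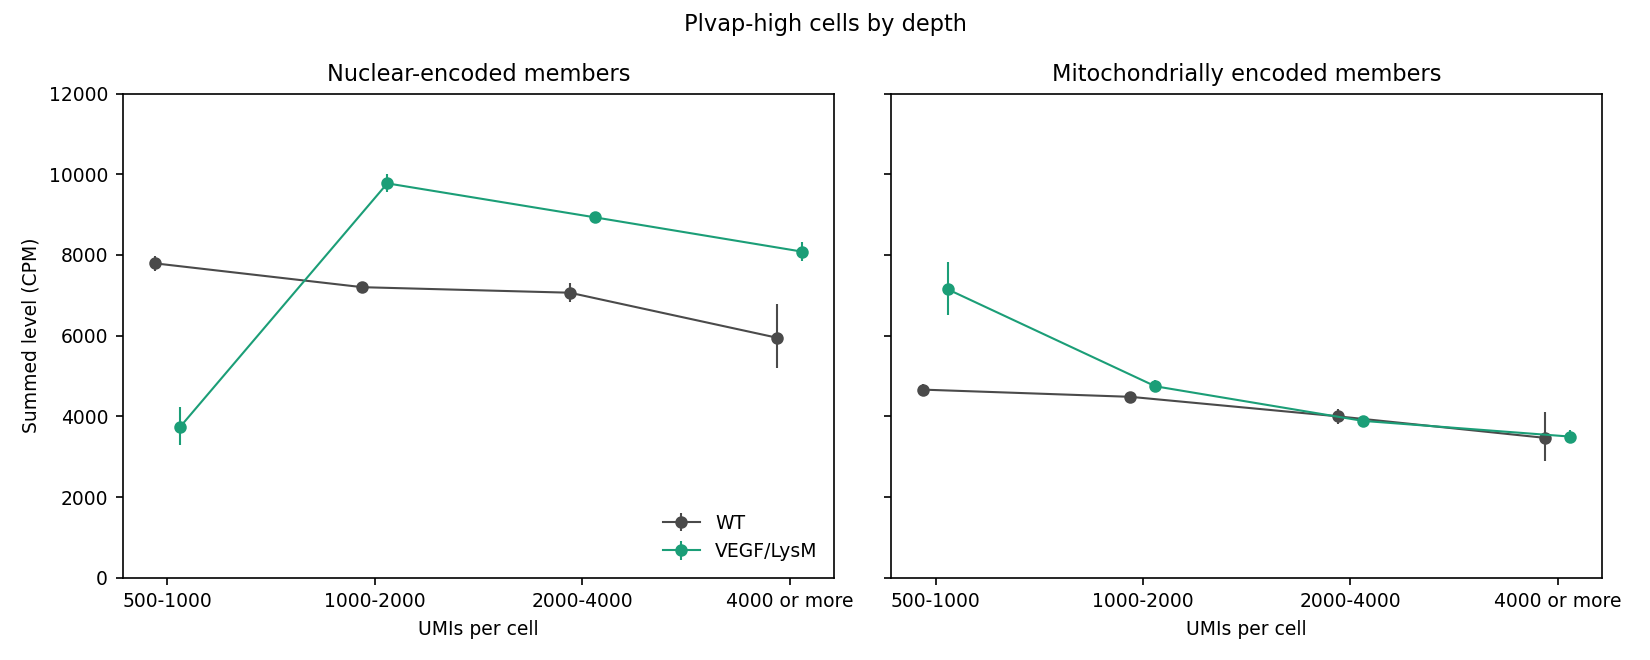
Summed level in CPM of nuclear (left) and mitochondrial (right) members in Plvap-high cells by UMIs per cell (x axis), WT in dark grey and VEGF/LysM in green, with 95% counting intervals. From 1000 UMIs on the nuclear sum is higher in VEGF/LysM cells and the mitochondrial sums lie close together, and below 1000 UMIs the order differs.

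Capillary-like and arterial-like cells differed from Plvap-high cells more in mitochondrially encoded than in nuclear sums. Capillary-like cells, compared with Plvap-high cells of the same library, had mitochondrial sums higher by a log2 ratio of 1.23 (1.19 to 1.26) in WT and 1.15 (1.12 to 1.19) in VEGF/LysM. Their nuclear sums were higher by 0.41 (0.38 to 0.44) and 0.24 (0.21 to 0.27). Of 12 measured mitochondrial members 11 were at least 25% higher in both libraries, beside 12.9% of all measured genes. The exception was mt-Nd6, with log2 ratios of 0.47 (0.27 to 0.67) and 0.24 (0.03 to 0.45). mt-Nd2 was at 2315 CPM in capillary-like and 859 CPM in Plvap-high cells of the WT library (log2 1.43) and at 2185 and 887 CPM in the VEGF/LysM library (log2 1.30). mt-Cytb was at 2132 and 974 CPM and at 2006 and 888 CPM (log2 1.13 and 1.18). mt-Nd3, with 100 and 97 UMIs in WT, had the largest ratio of the 12 there, 1.74 (1.33 to 2.16), and 0.91 (0.44 to 1.39) in VEGF/LysM.

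**Figure D5:**
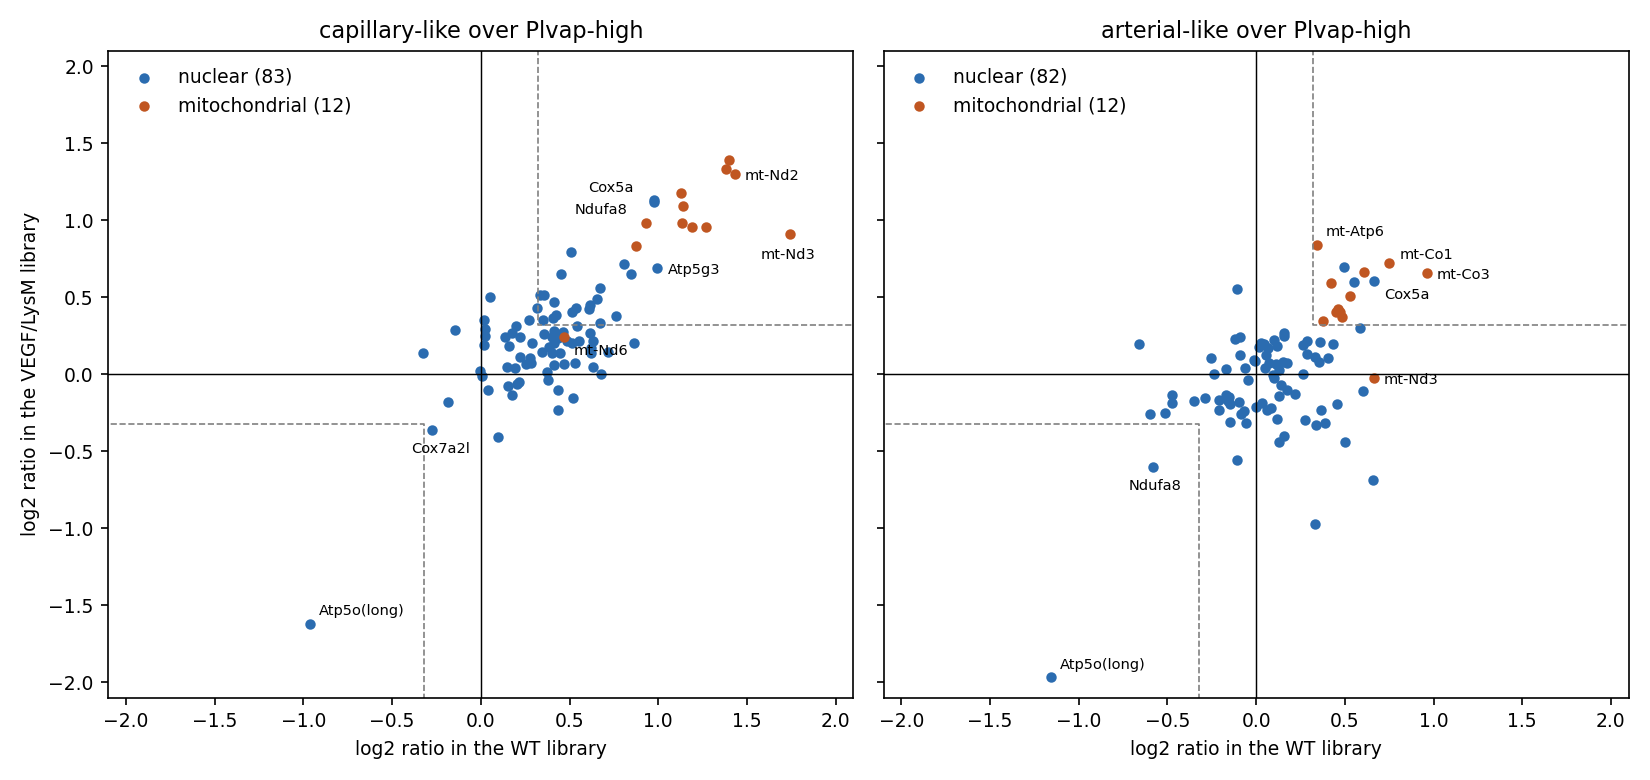
Log2 ratio of each member in capillary-like (left) or arterial-like (right) over Plvap-high cells, in the WT library (x axis) and the VEGF/LysM library (y axis). Blue points are nuclear and orange points mitochondrial genes, and the dashed corners bound differences of at least 25% in both libraries. Mitochondrial points lie in the upper right corner of both panels apart from mt-Nd6 on the left and mt-Nd3 on the right.

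Of 83 nuclear members 21 were higher in capillary-like than Plvap-high cells in both libraries, against 12.9% of all measured genes, and 1 was lower, the long Atp5o locus, beside 19.9%. Cox5a was at 134 and 68.1 CPM in WT (log2 0.98, 0.66 to 1.29) and at 203 and 92.6 CPM in VEGF/LysM (log2 1.13, 0.91 to 1.35). Ndufa8, an intermembrane-space subunit of complex I, was at 185 and 94.3 CPM in WT (log2 0.97, 0.70 to 1.24) and at 221 and 102 CPM in VEGF/LysM (log2 1.12, 0.91 to 1.33). Atp5j, the coupling factor of the ATP synthase stalk, was at 379 and 217 CPM and at 405 and 246 CPM (log2 0.81 and 0.72). Cox7a2l lay the other way, at 177 and 215 CPM in WT (log2 -0.28, -0.52 to -0.04) and 176 and 227 CPM in VEGF/LysM (log2 -0.36, -0.56 to -0.17). The complex II sum was called higher in neither library, with summed log2 ratios of 0.09 (-0.11 to 0.28) and -0.17 (-0.33 to -0.01) and none of its 4 genes called in both libraries. By its interval the sum was lower in the VEGF/LysM library.

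Capillary-like cells were shallower than Plvap-high cells (median 919 against 1099 UMIs in WT, 1727 against 2276 in VEGF/LysM). Between 1000 and 2000 UMIs the mitochondrial sums were 10647 CPM in capillary-like and 4485 CPM in Plvap-high cells of the WT library, and 9880 and 4746 CPM in the VEGF/LysM library. The adrenocortical marker list also differed with the class. Its 12 genes summed to 862 CPM in WT against 856 CPM in VEGF/LysM capillary-like cells, and to 331 and 334 CPM in Plvap-high cells. Which cells these UMIs came from was not tested. Over cells without a UMI of these markers, an alternative added after the data were seen, the mitochondrial log2 ratio was 1.21 in WT and 0.99 in VEGF/LysM. The nuclear one was 0.36 and 0.12, and 12 nuclear members were higher in both libraries. The share of all measured genes was not counted in those cells.

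Arterial-like cells also had higher mitochondrial transcripts than Plvap-high cells, with a smaller difference of the nuclear sum in WT and none beyond counting error in VEGF/LysM. The mitochondrial log2 ratio was 0.49 (0.43 to 0.56) in WT and 0.50 (0.45 to 0.55) in VEGF/LysM, and 11 of 12 members were higher in both, beside 12%, the exception being mt-Nd3. mt-Co1 was at 749 and 445 CPM in WT and at 591 and 358 CPM in VEGF/LysM (log2 0.75 and 0.72). The nuclear log2 ratio was 0.12 (0.06 to 0.17) and 0.01 (-0.03 to 0.05). Of 82 nuclear members 3 were higher in both libraries (Cox5a, Uqcrb and Uqcrfs1) and 2 lower, beside 16.8% (Ndufa8 and the long Atp5o locus). Ndufa8 was at 63.1 CPM in arterial-like and 94.3 CPM in Plvap-high cells of the WT library (log2 -0.58, -1.24 to 0.02) and at 67.2 and 102 CPM in the VEGF/LysM library (log2 -0.60, -1.06 to -0.17). Cox5a was therefore above Plvap-high cells in both vessel types, and Ndufa8 above in capillary-like and below in arterial-like cells. Arterial-like cells carried 210 and 203 CPM of adrenocortical markers, less than Plvap-high cells, and 339 and 306 CPM of the mural cell list, against 8.94 and 4.62 CPM in Plvap-high cells. The part of the mural list in these values was not tested.

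Tip-like cells lay close to Plvap-high cells. Of 82 nuclear members 2 were higher in both libraries (Atp5f1 and Ndufc2) and 3 lower (Uqcr11, Ndufb4 and Ndufv3). None of their 12 mitochondrial members was 25% higher in both libraries and none lower, beside backgrounds of 9.68% and 12.6%. Their mitochondrial log2 ratio was 0.11 (0.03 to 0.18) in WT and 0.09 (0.03 to 0.16) in VEGF/LysM, and their nuclear one -0.02 (-0.08 to 0.04) and -0.03 (-0.07 to 0.02).

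Clusters 2 and 6, which also carry Plvap, had smaller differences of both sums from the Plvap-high class than capillary-like cells had. In cluster 2, 3 of 84 nuclear members were higher in both libraries, beside 9.59%, and none lower, beside 6.95%, with mitochondrial log2 ratios of 0.02 in WT and -0.0022 in VEGF/LysM. In cluster 6, 6 of 82 were higher, beside 6.04%, and 3 lower, beside 8.96%, with mitochondrial log2 ratios of 0.13 and 0.12 and nuclear ones of 0.16 (0.12 to 0.20) in WT and 0.12 (0.08 to 0.15) in VEGF/LysM, which exclude 0.

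The balance of both genomes, given as UMIs of the 13 mitochondrial members per UMI of the 86 nuclear members, put these results on 1 scale. It was 0.608 (0.595 to 0.621) in Plvap-high cells of the WT library and 0.458 (0.449 to 0.467) in those of the VEGF/LysM library. In capillary-like cells it was 1.07 (1.04 to 1.10) and 0.863 (0.845 to 0.882), and in arterial-like cells 0.788 (0.747 to 0.832) and 0.643 (0.618 to 0.668). Cluster 0 alone, the larger part of the arterial-like class, had 0.753 (0.708 to 0.801) and 0.615 (0.590 to 0.641). Over cells of all depths, the order of the 3 classes was the same in both libraries, and each class was lower in VEGF/LysM. Below 1000 UMIs the balance of Plvap-high and of capillary-like cells was higher in VEGF/LysM. There, Plvap-high cells had nuclear and mitochondrial sums of 7792 and 4663 CPM in WT and 3733 and 7146 CPM in VEGF/LysM. Capillary-like cells had 10177 and 11655 CPM in WT and 5779 and 7737 CPM in VEGF/LysM. Myeloid-like cells had 0.603 and 0.461, and cluster 15 had 1.33 and 0.969.

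Other mitochondrial genes were counted from lists chosen with earlier results of these data known, to be read beside the 9.94% of all measured genes called higher and 11.3% called lower. In all endothelial cells, 14 of 77 measured genes of the mitochondrial ribosome were higher and none lower (median log2 0.15), among them Mrpl41 at 18.4 CPM in WT against 27.4 CPM in VEGF/LysM. Of 38 assembly factors of the complexes 4 were higher (Coa3, Sdhaf4, Cox20 and Tmem70) and 2 lower (Lyrm7 and Taco1), with a median of 0.05. Of 18 Krebs cycle and pyruvate dehydrogenase genes 2 were higher, Idh2 at 20.9 and 29.0 CPM and Mdh1 at 27.7 and 34.6 CPM (median 0.03). Citrate synthase, Cs, was at 71.0 and 60.96 CPM (log2 -0.22, -0.40 to -0.04). Etfb, which feeds electrons from fatty acid oxidation to ubiquinone, was at 26.6 and 44.0 CPM (log2 0.73, 0.47 to 0.98), while cytochrome c, Cycs, was at 72.0 and 78.6 CPM (log2 0.13, -0.04 to 0.29). Slc25a5, the ADP/ATP carrier, was at 76.8 and 106 CPM (log2 0.47, 0.31 to 0.62).

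The same background of 9.94% higher and 11.3% lower applies to the lists that follow. Of 17 regulators of mitochondrial gene expression 2 were higher and 1 lower. Tfam, which packages and transcribes mitochondrial DNA, was at 21.5 CPM in WT against 27.9 CPM in VEGF/LysM cells (log2 0.38, 0.08 to 0.67). The activators Nrf1 and Gabpa were at 104 and 103 CPM and at 53.5 and 48.7 CPM, and the coactivator Ppargc1a had 23 and 22 UMIs. The mitochondrial ribosomal RNA mt-Rnr1 was at 3809 and 4795 CPM (log2 0.33, 0.31 to 0.35) and mt-Rnr2 at 9524 and 10636 CPM (log2 0.16, 0.15 to 0.17). Of 16 measured glycolysis genes 5 were higher, none lower (median 0.18), with Gapdh at 126 and 167 CPM (log2 0.41, 0.29 to 0.53). Of 78 cytosolic ribosomal protein genes 1 was higher (median 0.09). Of 15 mitochondrial import genes 2 were higher (median 0.05), of 7 uncoupling and carrier genes 2 (median 0.06), of 13 electron carrier and other subunit genes outside the symbol rule 2 (median 0.13), and of 3 nuclear-retained RNAs none (median -0.03). The 10 genes of the dissociation and immediate-early list had 2 higher and 3 lower (median -0.30). Haemoglobin and other erythroid markers summed to 454 and 726 CPM, and their part in these values was not tested.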

How the data were processed

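Single-cell RNA libraries of 2 genotypes were analysed from the count matrices deposited by the authors, which hold UMI counts per gene and cell barcode. Per the submitters' processing notes they were made with Cell Ranger 7.0.1 on mm10 and used with Seurat, while the matrix header gives Cell Ranger 7.0.0. Barcodes needed at least 500 UMIs and 300 genes and no more than 15% of UMIs from mitochondrial genes, called doublets were removed (315 WT, 116 VEGF/LysM), and cells were clustered in scanpy 1.11.5 (2000 variable genes, 30 components, 15 neighbours, Leiden resolution 1) without the genes described here or other mitochondrial genes. Classes were rebuilt from marker genes, so names may differ from those of the study. Counts were summed over the cells of a library and class and divided by all UMIs (CPM). Intervals are exact (Poisson for levels, conditional binomial for ratios, scipy 1.17.1). Members and lists were chosen with earlier results of these data known. Named genes were all mitochondrial members, the highest and lowest nuclear member of each complex, the 6 with the highest lower bound and the 6 with the lowest upper bound of the ratio, tissue-restricted pairs and the extremes between classes. Ndufa10, Ndufb8, Ndufs7, Ndufb4, Ndufv3, Sdhb, Uqcr11, Cox5b, Atp5b, Atp5h, the ordinary Atp5o and list genes were named after their values were seen. The ratio and fold-call steps were run on simulated library totals with Poisson counts. These totals hold no single cells, clustering or variation between libraries, so they check only the arithmetic of those steps.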

Additional observations from a re-analysis of the deposited data

Results flagged for a closer look

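Ndufs6, a zinc-binding subunit of complex I, had ratios of opposite sign between classes, with counting intervals that each excluded 0. In Plvap-high cells it was at 73.0 CPM in WT against 97.8 CPM in VEGF/LysM, a log2 ratio of 0.42 (0.18 to 0.66). Arterial-like cells had 20 and 65 UMIs and a log2 ratio of 0.76 (0.02 to 1.56). Tip-like cells had 36 and 33 UMIs and a log2 ratio of -0.73 (-1.45 to -0.01). In capillary-like cells Ndufs6 was at 112 and 110 CPM. The difference between the classes was not tested, since each rests on 1 library per genotype.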

How the results depend on the processing

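No paired analysis was possible because each genotype has 1 library. The share of all measured genes called was counted in the main setting only, so the counts of members under the alternatives have no background beside them. Nuclear members higher in all endothelial cells numbered 25 to 53 over the alternatives, with 53 in cells of 1500 to 3000 UMIs (56 in Plvap-high cells). Lower ones numbered 0 without doublet removal, with cells thinned to 1000 UMIs, scaled to the median gene, as a mean per cell and in an equal mix of classes, and 2 in cells of 1500 to 3000 UMIs. The summed nuclear log2 ratio was 0.30 with at least 1000 UMIs, 0.27 with at most 5% mitochondrial UMIs, 0.32 thinned, 0.40 at 1500 to 3000 UMIs, 0.29 scaled to the median gene, 0.22 per cell and 0.24 in an equal mix. The mitochondrial sum changed sign: 0.012 with at least 1000 UMIs, 0.11 thinned, 0.020 at 1500 to 3000 UMIs and 0.019 per cell, against -0.011 scaled to the median gene and -0.14 in an equal mix. Mitochondrial members higher numbered 1 with at least 1000 UMIs, at most 5% mitochondrial UMIs or thinning. Their median changed sign to -0.017 at 1500 to 3000 UMIs, -0.080 in an equal mix, -0.013 for members with at least 200 UMIs and -0.015 without adrenocortical UMIs, where Atp5s was at -0.0053. The cause of these shifts was not tested.

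Higher nuclear members numbered 6 in capillary-like and 4 in arterial-like cells among members with at least 200 UMIs, 10 in capillary-like cells without adrenocortical UMIs and 12 in arterial-like cells when thinned. For capillary-like over Plvap-high cells in WT, the nuclear sum was 0.45 with at least 1000 UMIs, 0.47 scaled to the median gene and 0.36 without adrenocortical UMIs, and the mitochondrial sum 1.19 with at least 1000 UMIs, 1.06 with at most 5% mitochondrial UMIs and 1.29 scaled to the median gene. In VEGF/LysM the nuclear sum was 0.21 with no mitochondrial limit and at most 5%, 0.20 without doublet removal, 0.19 at 1500 to 3000 UMIs, 0.30 scaled to the median gene and 0.12 without adrenocortical UMIs, and the mitochondrial sum 1.10, 1.02, 1.07, then 1.22 scaled to the median gene, 1.11 with chain genes kept in clustering or Leiden resolution 0.5, and 0.99 without adrenocortical UMIs. Nuclear members higher there numbered 12 without doublet removal or adrenocortical UMIs, and lower 0 with at least 1000 UMIs, thinned, at 1500 to 3000 UMIs, with 200 UMIs a member or without adrenocortical UMIs, and 2 at resolution 0.5. For arterial-like over Plvap-high cells, 5 were higher with at least 1000 UMIs, no doublet removal, thinning, chain genes kept or no adrenocortical UMIs. There, 1 was lower with at least 1000 UMIs, at resolution 0.5 or with 200 UMIs a member, and 4 when thinned or without adrenocortical UMIs. Of 512 values of the 47 named genes, 448 moved within their interval, 63 moved beyond it and 1 called value, of Atp5s, changed sign. In all, 28 values in 14 genes had the other sign. The settings without adrenocortical UMIs were chosen after seeing the data.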
